A study of Mus musculus with 20 samples.

Results

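The genes described are the enzymes and regulators that build cholesterol and fatty acids, read in 20 mouse mammary tumours. They were taken from a written list of 35 symbols, matched to the transcript with the highest total over the 20 columns, and kept where at least 5 columns held a value of 10 or more. All 35 of 35 listed genes met that rule, among 19840 genes that met it and 38930 named genes in all. Of the 35, 19 make or carry sterols, 5 regulate the pathway and 11 make or modify fatty acids. The tumours grew from SSM3 cells, an oestrogen receptor-positive line of mouse mammary tumour cells, placed in the mammary gland of 129/SvEv mice (129S6/SvEv in the protocol) aged 2 to 4 months and allowed to reach about 150 mm3. Each of the 4 groups had 5 tumours, which the design text calls biological replicates. The letrozole + anti-PD-1 mice were ovariectomised, received 1 mg/kg of letrozole daily under the skin in 5% ethanol in saline for 25 days, and received 250 µg of anti-PD-1 into the peritoneum on days 3, 5 and 7. The letrozole mice had the same surgery and letrozole without the antibody. The anti-PD-1 mice had a sham operation, the ethanol and saline vehicle for 25 days, and the same antibody doses, and the vehicle mice had the sham operation and vehicle. Letrozole blocks aromatase, the enzyme that makes oestrogen, and was always given together with removal of the ovaries, so the drug and the surgery cannot be told apart and "letrozole" below stands for both. All tumours share 1 injected cell line and an immunocompetent host.

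Cholesterol is built from acetyl-CoA through mevalonate, the isoprenoids and squalene to lanosterol, which is then trimmed to cholesterol, while fatty acids are built from the same acetyl-CoA by acetyl-CoA carboxylase and fatty acid synthase and then lengthened and desaturated. Both branches are driven by the SREBP transcription factors, with SREBP-2 acting mainly on sterol genes and SREBP-1 mainly on fatty acid genes. SCAP escorts the SREBPs out of the endoplasmic reticulum for cleavage when sterols are low, and the INSIG proteins hold them back when sterols are high. SREBP-responsive promoters commonly combine a sterol regulatory element with a CCAAT box, which binds the factor NF-Y, or a GC box, which binds Sp1.

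The promoters of members that passed the threshold with letrozole are shown here because those genes carry the main comparison, together with that of Hmgcs1, the member in which the sterol regulatory element was found. Each line gives the 150 bases before the RefSeq start on mouse build GRCm38.p6, 5′ to 3′ on the gene's strand, with CCAAT (or its reverse complement ATTGG) and, in Hmgcs1, the sterol regulatory element in capitals.
Mvd, chr8:122443423-122443572, strand -: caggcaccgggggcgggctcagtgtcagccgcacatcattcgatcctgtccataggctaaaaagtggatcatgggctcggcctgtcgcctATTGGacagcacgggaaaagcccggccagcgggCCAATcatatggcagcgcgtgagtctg
Lss, chr10:76531455-76531604, strand +: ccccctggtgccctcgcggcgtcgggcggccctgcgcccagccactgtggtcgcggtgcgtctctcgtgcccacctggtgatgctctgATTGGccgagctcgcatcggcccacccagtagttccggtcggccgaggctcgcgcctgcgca
Cyp51, chr5:4104698-4104847, strand -: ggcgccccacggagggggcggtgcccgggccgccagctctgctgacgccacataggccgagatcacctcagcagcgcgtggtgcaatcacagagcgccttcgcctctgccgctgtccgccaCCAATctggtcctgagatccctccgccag
Acss2, chr2:155517893-155518042, strand +: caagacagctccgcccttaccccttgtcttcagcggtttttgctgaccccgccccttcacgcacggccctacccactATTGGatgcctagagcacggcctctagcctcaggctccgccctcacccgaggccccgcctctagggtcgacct
Hmgcs1, chr13:119690201-119690350, strand +: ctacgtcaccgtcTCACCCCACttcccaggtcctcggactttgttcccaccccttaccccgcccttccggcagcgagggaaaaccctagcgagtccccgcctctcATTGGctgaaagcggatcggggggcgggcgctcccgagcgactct
Promoter windows of RefSeq were matched for 28 of the 35 members, spanning 250 bases before to 50 after the start. CCAAT, searched on both strands, stood in 14 of 15 sterol genes, 4 of 5 regulators and 5 of 8 fatty acid genes, against 41.1% of the 27025 genes with a window. GGGCGG, the core of a GC box, also searched on both strands, stood in 14 of 15 sterol genes, 5 of 5 regulators and 4 of 8 fatty acid genes, against 38.2% of genes. The letters TCACNCCAC, a sterol regulatory element, were found on either strand in 1 of 15 sterol genes, Hmgcs1, where the match began 137 bases before the start, and in 0 of 5 regulators and 0 of 8 fatty acid genes, against 1.44% of genes. The full palindrome of the consensus oestrogen response element was found on neither strand of any member's window, that is, in 0 of the 28 members and in 0.074% of genes. In the windows printed above, CCAAT letters lay 60 and 27 bases before the start of Mvd, 62 before that of Lss, 29 before that of Cyp51, 73 before that of Acss2 and 45 before that of Hmgcs1. These are letter matches only, and no binding was measured.

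Values are normalised read counts, that is, reads per transcript divided by 1 size factor per library. Depth over the chosen transcripts was 12454194 to 31297742 reads per library, with a median of 26702078 in letrozole + anti-PD-1, 25177110 in letrozole, 15972016 in anti-PD-1 and 23286423 in vehicle tumours. Luminal epithelial markers summed to between 240971 and 338628 normalised counts in every tumour, and 10 of 10 were detected throughout. Pgr, the progesterone receptor and a textbook oestrogen target, stood at 733 to 1725 normalised counts in the 10 letrozole tumours, against 7763 to 18215 in the 10 tumours without letrozole, and the 2 ranges do not overlap. Libraries that stood apart were vehicle replicate 3, highest of its group in adipocyte, fibroblast and macrophage markers, anti-PD-1 replicate 1, with the fewest reads, and vehicle replicate 2, which was the highest of all 20 tumours for 16 of the 19 sterol genes. Skeletal muscle genes were present in letrozole + anti-PD-1 replicate 2 and letrozole replicates 1, 4 and 5. In whole tumours, fewer cells of a type and less RNA per cell cannot be told apart.

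With letrozole, part of the sterol branch fell, and the fatty acid branch had 1 called gene in each direction. The letrozole effect averaged over tumours with and without anti-PD-1 was called, at a limma adjusted p under 0.05 over all 19840 genes, for 7 of 35 members, or 20%, against 7% of all genes. Of the 19 sterol genes, 5 fell and none rose, which is 26.3% of them, against 3.71% of all genes that fell. The 5 are Mvd, Fdps, Lss and Cyp51, enzymes at points between mevalonate and the trimming of lanosterol, and Stard4, which carries cholesterol within the cell. Idi1, Fdft1 and Sqle, which act between Mvd and Lss, were not called (adjusted p = 0.0571, 0.372 and 0.135). The estimate of the chosen transcript was below 0 for 19 of 19 sterol genes, against 45.9% of all genes. The sterol median log2 difference was −0.31, with a range of −0.72 to −0.06, against a median over all genes of 0.03. For Tm7sf2 the sign depended on the transcript, since 6 of its 15 transcripts were lower with letrozole. Of the 11 fatty acid genes, Acss2 rose (3.29% of all genes did) and Scd2 fell, and the median log2 difference was 0.06, with 6 estimates above 0 and 5 below. None of the 5 regulators was called. At an unadjusted p under 0.05, 13 of the 19 sterol genes, 2 of the 5 regulators and 4 of the 11 fatty acid genes passed, against 22.9% of all genes.

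**Figure D1:**
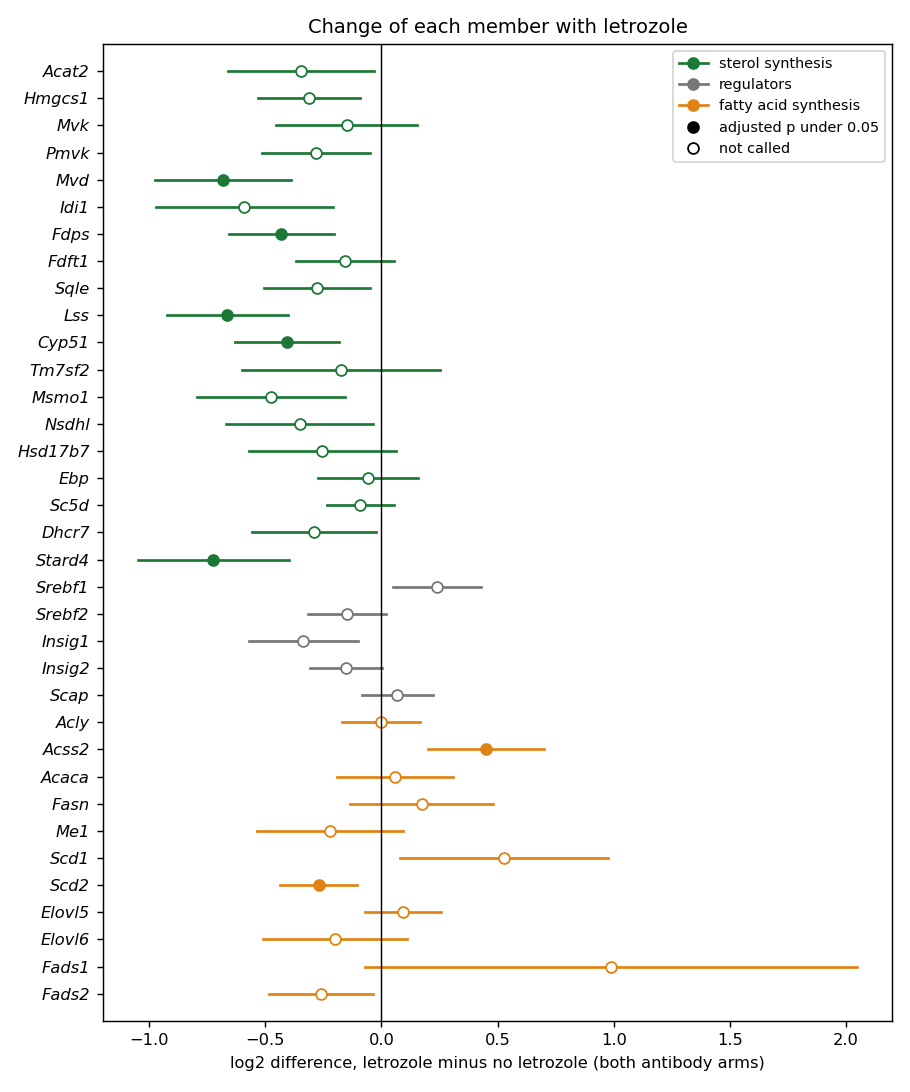
Letrozole minus no letrozole for the 35 members, averaged over both antibody arms, on the log2 scale (horizontal axis), with 95% confidence intervals as lines and filled points for an adjusted p under 0.05. All 19 sterol points lie left of 0, from −0.72 to −0.06, whereas the 11 fatty acid points lie on both sides of it and Fads1 has the widest interval.

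Mvd, mevalonate diphosphate decarboxylase, makes isopentenyl diphosphate, the isoprenoid unit. It was measured at 328, 451, 281, 525 and 314 normalised counts in letrozole + anti-PD-1 tumours and 443, 291, 311, 414 and 455 in letrozole tumours, against 555, 468, 545, 625 and 608 in anti-PD-1 tumours and 516, 1021, 522, 554 and 718 in vehicle tumours. Of the 10 letrozole tumours, 9 were below the lowest tumour without letrozole, and the exception was letrozole + anti-PD-1 replicate 4. Its log2 difference was −0.68 (SE 0.14, adjusted p = 0.0062), so that it fell by 37.6%.

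Fdps, farnesyl diphosphate synthase, joins isoprenoid units into the precursor of sterols and of protein prenyl groups. It had 3024, 3257, 2337, 3930.3 and 2825 normalised counts in letrozole + anti-PD-1 tumours and 3696, 2722, 3201, 3766 and 3207 in letrozole tumours, against 3918, 3662, 5330.4, 4597 and 3654 in anti-PD-1 tumours and 3687, 6086, 3831, 3795 and 4694 in vehicle tumours. The arms overlapped, with 7 of 10 letrozole tumours below the lowest tumour without letrozole. Fdps fell by 25.8% (log2 −0.43, SE 0.11, adjusted p = 0.0191). The call was lost with the mean of G2/M genes as a term in the fit, where the estimate was further from 0 (log2 −0.52, adjusted p = 0.121). It was also lost without the 4 libraries that held skeletal muscle genes (adjusted p = 0.0719). Its exons share 81.3% of their bases with the gene model Gm43738 on the same strand, so its reads may be split between both models and its value is uncertain.

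Lss, lanosterol synthase, closes squalene epoxide into the first sterol. It had 809, 827, 567, 1019 and 735 normalised counts in letrozole + anti-PD-1 tumours and 907, 751, 696, 1140.0 and 1014 in letrozole tumours, against 1237, 1045, 1255, 1486 and 1248 in anti-PD-1 tumours and 1211, 2134, 1119, 1269 and 1405 in vehicle tumours. Here too 9 of 10 letrozole tumours were below every tumour without letrozole, and letrozole replicate 4 was the exception. Lss had the lowest adjusted p of the members (log2 −0.66, SE 0.12, adjusted p = 0.0030) and fell by 36.8%. The next enzyme, Cyp51, removes a methyl group from lanosterol. Its counts were 1736, 1525, 1459, 1783 and 2027 in letrozole + anti-PD-1 tumours and 1973, 1652, 1448, 2025 and 1947 in letrozole tumours, against 2438, 1733, 2292, 2685 and 1902 in anti-PD-1 tumours and 2183, 3458, 1996, 2114 and 2759 in vehicle tumours. The arms overlapped more than for Lss, with 4 of 10 letrozole tumours below the lowest tumour without letrozole, although 10 of 10 were below the median of those tumours. Cyp51 fell by 24.5% (log2 −0.41, SE 0.11, adjusted p = 0.0257), a call that was lost without letrozole replicate 3 and without anti-PD-1 replicate 4. It was also lost without the 4 libraries that held skeletal muscle genes (adjusted p = 0.0792). With the macrophage or G2/M marker mean as a term the call was lost too, at log2 −0.44 and −0.48 (adjusted p = 0.0624 and 0.157).

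Stard4, a soluble carrier that moves cholesterol between membranes, had the largest decrease among the 7 called members. It stood at 499.6, 830.2, 374, 1051 and 798 normalised counts in letrozole + anti-PD-1 tumours and 601, 899, 706, 888 and 828 in letrozole tumours, against 1237, 1113, 988, 989.6 and 1026 in anti-PD-1 tumours and 1066, 1986, 1213, 1248 and 1239 in vehicle tumours. The lowest tumours were letrozole + anti-PD-1 replicates 3 and 1, and letrozole + anti-PD-1 replicate 4 was the 1 letrozole tumour of 10 that reached the range without letrozole. Stard4 fell by 39.4% (log2 −0.72, SE 0.16, adjusted p = 0.0077), a call lost without the 4 libraries that held skeletal muscle genes (adjusted p = 0.0713). In each of Mvd, Fdps, Lss, Cyp51 and Stard4, every transcript of the gene in the table had a lower mean with letrozole. That covers 2, 7, 8, 4 and 4 transcripts in that order. Transcripts of the same gene can share reads, so they are not independent of each other or of the call.

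**Figure D2:**
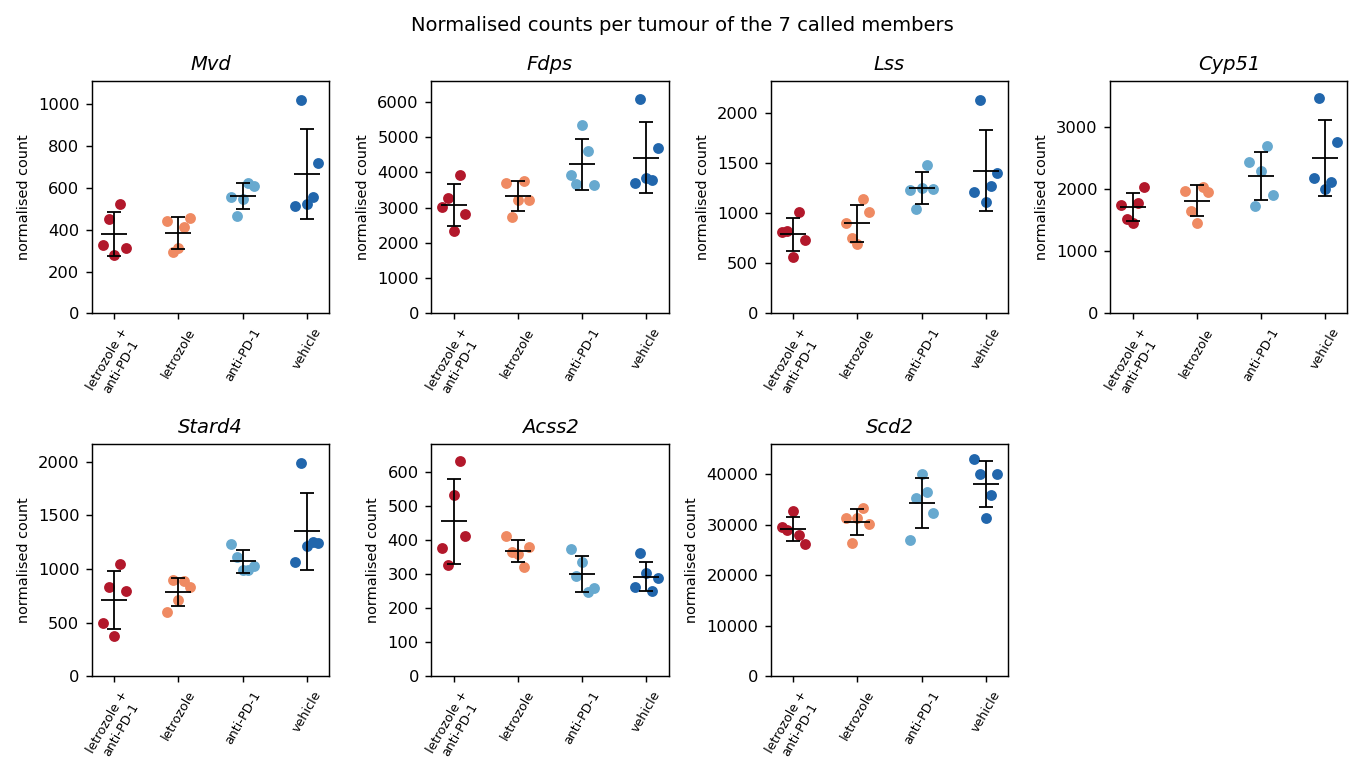
Normalised counts of the 7 members with an adjusted p under 0.05, 1 point per tumour, with the group mean and SD (n = 5) as bars. Letrozole + anti-PD-1 and letrozole tumours sit low for Mvd, Lss and Stard4, where 9 of 10 lie under every tumour without letrozole, and vehicle replicate 2 is the high point in the 5 sterol panels.

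The remaining 14 sterol genes had estimates below 0 without reaching the threshold. Idi1, which interconverts the isoprenoid units, had the next largest difference (log2 −0.59, adjusted p = 0.0571), with 201 to 508 normalised counts in letrozole tumours, against 339 to 749 in tumours without letrozole. Msmo1, a sterol C4 methyl oxidase, ran from 838 to 1851 with letrozole, against 1265 to 2921 without it (log2 −0.48, adjusted p = 0.0644). Hmgcs1, which makes HMG-CoA at the entry of the pathway, ran from 2246 to 3528 with letrozole, against 2603 to 5228 without (log2 −0.31, adjusted p = 0.0786). These ranges overlap for all 3 genes. Of their exon bases, 10.7% of Idi1 lie opposite Gm48574 and 16.1% of Hmgcs1 opposite Gm48342, so without a stated strand setting both levels are uncertain. Sqle, squalene epoxidase, had the highest level per kilobase of transcript of any member, at 7233 normalised counts per kilobase on average. Its total counts were 14487 to 21036 with letrozole, against 15221 to 27771 without (log2 −0.28, adjusted p = 0.135). For 2 late enzymes the estimates were close to 0, at −0.06 for Ebp (95% interval −0.27 to 0.16) and −0.09 for Sc5d (−0.23 to 0.05), which act on the sterol double bonds. Of the enzymes around them, Nsdhl, Hsd17b7 and Dhcr7 had log2 estimates of −0.35, −0.25 and −0.29 with adjusted p-values of 0.170, 0.334 and 0.179. The early enzymes Acat2, Mvk and Pmvk had estimates of −0.34, −0.15 and −0.28, with adjusted p-values of 0.177, 0.579 and 0.136. For Fdft1, squalene synthase, the estimate was −0.16 (adjusted p = 0.372), and 20.9% of its exon bases lie opposite Ctsb. Tm7sf2, a sterol reductase, had −0.17 (adjusted p = 0.653) at 32.8 to 107.0 counts in all, and 70.7% of its exon bases are shared with Vps51 on the same strand, so that its level is uncertain. The log2 changes of its 15 transcripts ran from −0.38 to 1.24, and 6 were below 0. For Dhcr7, 12 of 13 transcripts were lower with letrozole, and the highest change was 0.50.

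None of the regulators passed the threshold. Insig1, itself an SREBP target, stood at 589 to 795 normalised counts in letrozole tumours, against 659 to 1362 in tumours without letrozole (log2 −0.34, SE 0.11, adjusted p = 0.0750). All 10 letrozole tumours lay below the median of the tumours without letrozole, although the ranges overlap. Srebf2, which encodes SREBP-2, ran from 6361 to 9697 normalised counts with letrozole, against 8028 to 10472 without (log2 −0.15, adjusted p = 0.278). Srebf1, which encodes SREBP-1, had an estimate of the opposite sign (log2 0.24, SE 0.09, adjusted p = 0.118), with 5422 to 8107 normalised counts with letrozole, against 4706 to 7073 without. Insig2 and Scap had log2 estimates of −0.15 and 0.07, with adjusted p-values of 0.222 and 0.610. For Scap, 18.6% of exon bases lie opposite the gene model 5830462I19Rik, so its level is uncertain.

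In the fatty acid branch, Acss2, which makes acetyl-CoA from acetate, was the 1 member that rose. Its counts were 377, 325, 531, 631 and 410.4 in letrozole + anti-PD-1 tumours and 411, 365, 359, 321 and 378 in letrozole tumours, against 373, 293, 335, 247 and 258 in anti-PD-1 tumours and 263, 362, 301, 249.8 and 287 in vehicle tumours. All 10 letrozole tumours exceeded the median without letrozole and 6 of 10 exceeded the highest tumour without it. The log2 difference was 0.45 (SE 0.12, adjusted p = 0.0257), and 13.1% of its exon bases lie opposite other gene models. The call was lost without anti-PD-1 replicate 4, without vehicle replicate 1 and after centring libraries on their medians. It was also lost without the 4 libraries that held skeletal muscle genes (adjusted p = 0.0969). With the fibroblast, macrophage or G2/M marker mean as a term the call was lost too, at log2 0.44, 0.47 and 0.54 (adjusted p = 0.0572, 0.0751 and 0.153).

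Scd2, a stearoyl-CoA desaturase, fell slightly. It had 29615, 29009, 32771, 27956 and 26215 normalised counts in letrozole + anti-PD-1 tumours and 31424, 26408.5, 31409, 33239 and 30156.5 in letrozole tumours, against 27061.5, 35369.7, 40073, 36537 and 32277 in anti-PD-1 tumours and 43011.5, 40066, 31346, 35836 and 40101 in vehicle tumours. The ranges overlap, and the low tumour without letrozole was anti-PD-1 replicate 1, the shallowest library. The log2 difference was −0.27 (SE 0.08, adjusted p = 0.0462), and the call was kept in 12 of 38 alternative fits, which makes it the least stable of the 7. Its paralogue Scd1 had an estimate of the opposite sign (log2 0.53, SE 0.21, adjusted p = 0.148). Scd1 stood at 15474, 21190.4, 19358, 51738 and 37114 normalised counts in letrozole + anti-PD-1 tumours and 25724, 45601, 38164, 22458 and 28663 in letrozole tumours, against 17467, 13993, 21435, 18149 and 29658 in anti-PD-1 tumours and 24617, 15639.8, 33754, 14160.3 and 17560.1 in vehicle tumours. As near copies, Scd1 and Scd2 could exchange reads depending on how multiply mapped reads were counted.

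Adipocyte markers were set beside the Scd1 values. The 12 adipocyte markers summed to 173, 745, 310.2, 5111 and 3368 normalised counts in letrozole + anti-PD-1 tumours and 1403, 5858, 1199, 296 and 734 in letrozole tumours, against 1773, 150.4, 291, 1075 and 4849 in anti-PD-1 tumours and 722, 411, 4129, 106 and 618 in vehicle tumours. In 4 of 4 groups the tumour with the largest sum also had the most Scd1, and in 3 of 4 groups it had the most Fasn and the most Acaca. The same was seen in 2 of 4 groups for Acly and Fads1 and in 1 of 4 for Acss2 and Elovl6. It was seen in 0 of 4 for Me1, Scd2, Elovl5 and Fads2. The share over all genes was not counted. Scd1 did not follow the sum throughout: letrozole replicate 3 had 38164 normalised counts of Scd1 with a marker sum of 1199, and anti-PD-1 replicate 1 had 17467 with a sum of 1773. The defining fat cell markers Adipoq, Plin1 and Fabp4 ranged from 0 to 370.4, 607 and 1765 normalised counts over the 20 tumours. Of the 12 markers 10 had estimates above 0 with letrozole, with a median log2 difference of 0.59, and 0 of 12 were called by limma (1 at an unadjusted p under 0.05). With the adipocyte marker mean as a term in the fit, the Scd1 estimate was 0.38 (95% interval 0.13 to 0.64, adjusted p = 0.0681). The same fit gave −0.68, −0.65 and −0.75 for Mvd, Lss and Stard4, each still called. With the fibroblast, macrophage or G2/M mean instead, the Scd1 estimate was 0.38, 0.28 and 0.23 (adjusted p = 0.358, 0.623 and 0.830). Vehicle replicate 3 and anti-PD-1 replicate 5 were also highest of their groups in fibroblast and macrophage marker sums. Whether Scd1 moves with fat cells in particular was not tested.

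The core enzymes of fatty acid synthesis were not called. Fasn, fatty acid synthase, ran from 9582 to 26826 normalised counts with letrozole, against 10614 to 15284 without, and 2 letrozole tumours, letrozole + anti-PD-1 replicate 4 and letrozole replicate 2, were above all others (log2 0.17, 95% interval −0.13 to 0.48, adjusted p = 0.512). Acaca, acetyl-CoA carboxylase, and Acly, ATP citrate lyase, had estimates of 0.06 (−0.19 to 0.31) and −0.00 (−0.17 to 0.17). Me1, which supplies NADPH, had −0.22 (adjusted p = 0.402), and the elongases Elovl5 and Elovl6 had 0.09 and −0.20 (adjusted p = 0.503 and 0.443). The desaturases of polyunsaturated fatty acids had estimates of different sign in the main fit, and neither was called. Fads2 had −0.26 (adjusted p = 0.152) at 971 to 1740 normalised counts with letrozole, against 1147 to 1980 without. Fads1 had 0.99 with an SE of 0.51 (adjusted p = 0.252), at 81.1 to 230.4 normalised counts with letrozole, against 9.3 to 465 without, and was the member with the lowest level per kilobase. Its highest tumour of all was vehicle replicate 3. The sign for Fads1 depended on the fit. With the adipocyte, fibroblast, macrophage or G2/M mean as a term, its estimate was 0.77, 0.28, −0.16 and 0.52 (adjusted p = 0.326, 0.666, 0.845 and 0.846).

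Averaged per tumour, the sterol branch was lower with letrozole with little overlap between tumours. The mean over the 19 sterol genes of log2(normalised count + 1) was 9.67 ± 0.15 in letrozole + anti-PD-1 and 9.72 ± 0.18 in letrozole tumours, against 9.98 ± 0.07 in anti-PD-1 and 10.11 ± 0.27 in vehicle tumours (SD, n = 5 each). Single tumours ran from 9.51 to 9.91 with letrozole, against 9.87 to 10.54 without, a slight overlap. For the 11 fatty acid genes the means were 11.59 ± 0.25 in letrozole + anti-PD-1 and 11.64 ± 0.12 in letrozole tumours, against 11.45 ± 0.26 in anti-PD-1 and 11.53 ± 0.22 in vehicle tumours, and these ranges overlap widely. The level of the sterol branch relative to the fatty acid branch within a tumour, their difference, was −1.92 ± 0.19 in letrozole + anti-PD-1 and −1.93 ± 0.20 in letrozole tumours, against −1.48 ± 0.20 in anti-PD-1 and −1.42 ± 0.27 in vehicle tumours. The letrozole change in that difference was −0.44 beside anti-PD-1 and −0.51 without it, or −0.47 on average, and anti-PD-1 minus vehicle was −0.05. Without Fads1, a setting added after seeing the data, the average was −0.39, and with medians over members in place of means it was −0.24. These branch means are descriptions and carry no test.

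**Figure D3:**
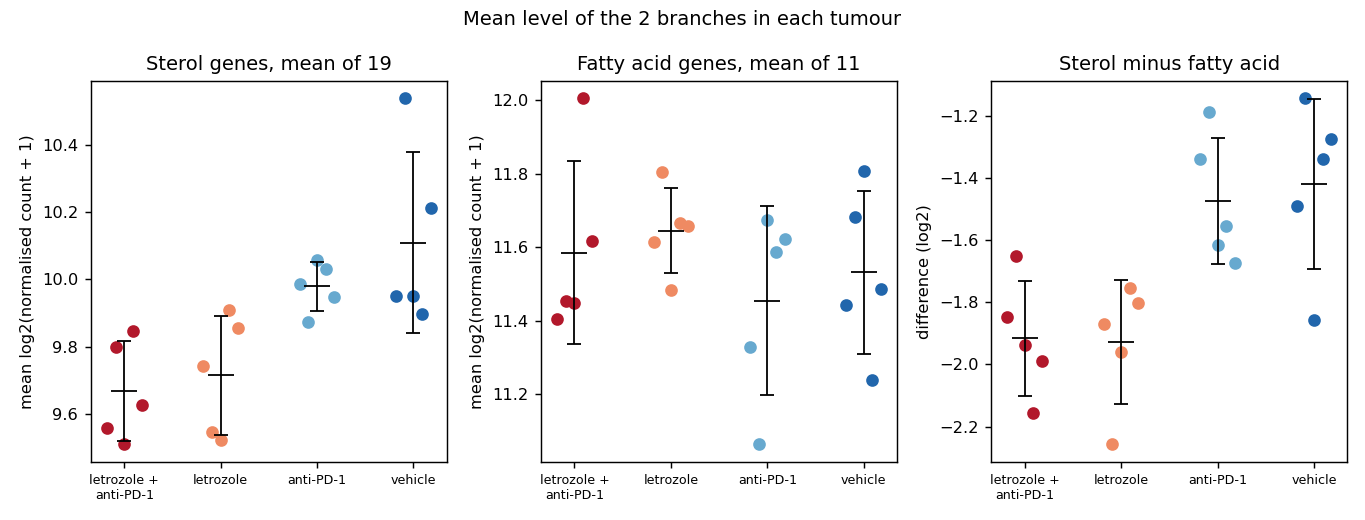
Mean log2(normalised count + 1) over the 19 sterol genes, over the 11 fatty acid genes, and their difference, 1 point per tumour with the group mean and SD (n = 5). The sterol panel places letrozole tumours between 9.51 and 9.91 and tumours without letrozole between 9.87 and 10.54. In the difference panel vehicle replicate 3 and anti-PD-1 replicate 5 lie within the range of the letrozole tumours.

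The letrozole difference was then read within each antibody arm. In letrozole against vehicle tumours, 19 of 19 sterol genes had estimates below 0 (46.6% of all genes did), with a median log2 difference of −0.35. limma called 0 of 35 members there, against 0.958% of all genes, with 14 members at an unadjusted p under 0.05 (13.9% of all genes), 0 called by edgeR and 4 by DESeq2. The lowest adjusted p was 0.0715, for Mvd (log2 −0.77, SE 0.20). Mvd, Nsdhl and Stard4 had 5 letrozole tumours entirely below the 5 vehicle tumours, which 1.96% of all genes did. In letrozole + anti-PD-1 against anti-PD-1 tumours, 17 of 19 sterol genes had estimates below 0 (46.1% of all genes), with a median of −0.29. Again limma called 0 members, against 1.07% of all genes, with 7 at an unadjusted p under 0.05 (13.4% of all genes), 0 by edgeR and 2 by DESeq2. Lss had the lowest adjusted p, 0.0678 (log2 −0.68, SE 0.18). It was the 1 sterol gene with all letrozole + anti-PD-1 tumours below all anti-PD-1 tumours, as was the case for 1.47% of all genes. The 2 comparisons share no tumours. The shares of all genes called by DESeq2 in them are not given here. Its member counts therefore cannot be set against all genes and are not read as results about the members.

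The difference between the 2 arms, tested as an interaction, was called by limma for 0 of 35 members and 0% of all genes, with 1 member at an unadjusted p under 0.05 (1.98% of all genes), and 0 members by edgeR and by DESeq2. That member was Nsdhl, an X-linked sterol dehydrogenase (log2 0.72, SE 0.30, unadjusted p = 0.0277). It stood at 246, 361, 334, 281 and 331 normalised counts in letrozole + anti-PD-1 tumours and 303, 192, 261, 339 and 290.0 in letrozole tumours, against 182, 309, 297, 408 and 394 in anti-PD-1 tumours and 366, 614, 412, 349.7 and 542 in vehicle tumours. The vehicle tumours ran highest, above all letrozole tumours but overlapping the anti-PD-1 and the letrozole + anti-PD-1 tumours.

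**Figure D4:**
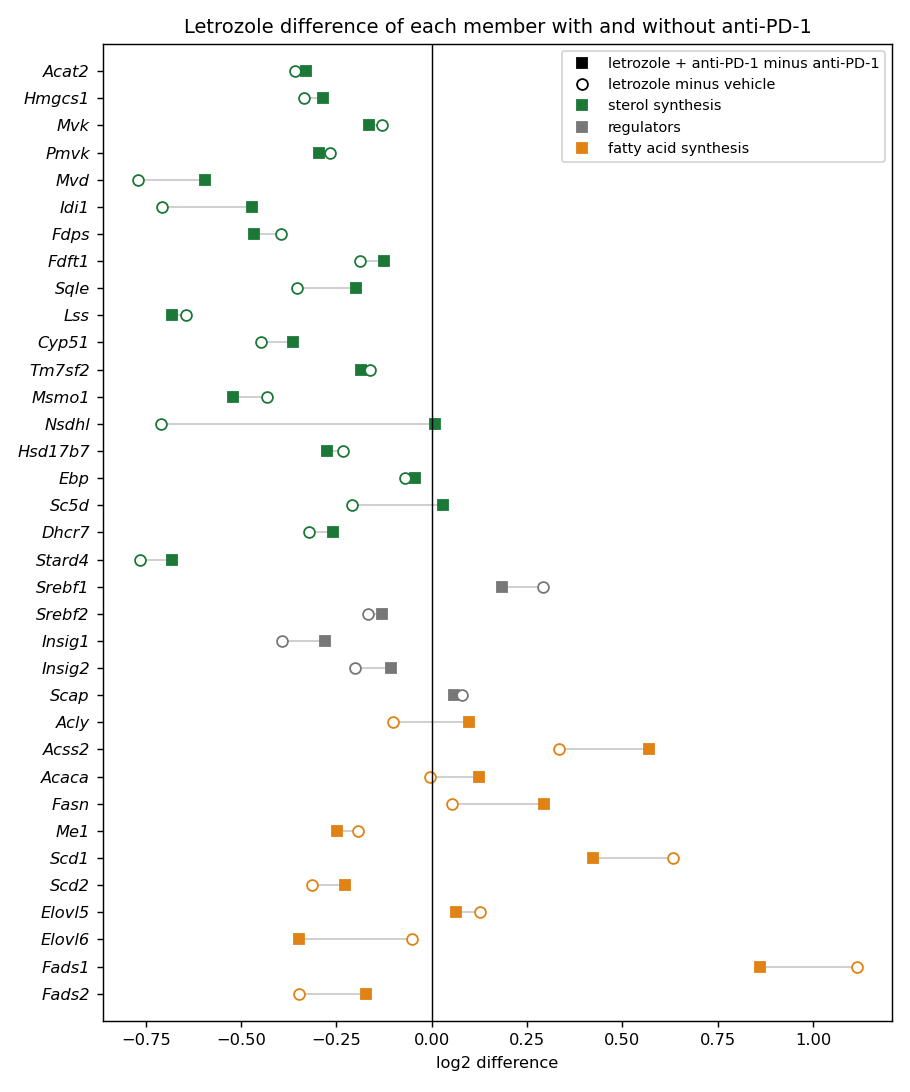
Log2 letrozole difference of each member beside anti-PD-1 (filled squares, letrozole + anti-PD-1 minus anti-PD-1) and without it (open circles, letrozole minus vehicle). Lss lies at −0.68 and −0.65 and Stard4 at −0.68 and −0.76, whereas Nsdhl lies at 0.01 and −0.71.

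The antibody by itself was not associated with a called difference in any member. Anti-PD-1 against vehicle gave 0 members and 0% of all genes by limma, 1 member at an unadjusted p under 0.05 (Nsdhl, log2 −0.54, unadjusted p = 0.020; 2.72% of all genes), and 0 members by edgeR and DESeq2. The sterol median was −0.13 and the fatty acid median −0.06 on the log2 scale. Letrozole + anti-PD-1 against letrozole gave 0 members and 0% of all genes by limma, 0 at an unadjusted p under 0.05 (3.16% of all genes), and 0 by both other tools, with medians of −0.05 and −0.07. The standard error of a sterol gene in these comparisons of 5 against 5 had a median of 0.18 on the log2 scale, which limits what they could show.

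Between the 2 groups that differ in both treatments, letrozole + anti-PD-1 against vehicle, 2 of 35 members were called and both fell. That is 5.71%, against 1.18% of all genes called and 0.721% of all genes that fell. At an unadjusted p under 0.05, 15 members passed, against 13.2% of all genes. Lss had a log2 difference of −0.84 (SE 0.18, adjusted p = 0.0193) and Stard4 one of −0.98 (SE 0.22, adjusted p = 0.0267). Lss, Stard4 and Insig1 were the members with all letrozole + anti-PD-1 tumours below all vehicle tumours, as was the case for 1.59% of all genes. Neither Lss nor Stard4 was called without vehicle replicate 2, the high tumour, nor without letrozole + anti-PD-1 replicate 3. Lss was also not called without letrozole + anti-PD-1 replicate 5, and Stard4 without letrozole + anti-PD-1 replicate 1, vehicle replicate 4 or vehicle replicate 5. This comparison shares its vehicle tumours with the one of letrozole against vehicle.

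Sterol genes also varied together from tumour to tumour within groups. Over deviations from group means in 20 tumours, the 171 pairs of sterol genes had a median Pearson r of 0.40, with 144 pairs above 0, against 0.22 for the 55 fatty acid pairs and 0.16 for the 209 pairs across branches. Without vehicle replicate 2 these medians were 0.24, 0.19 and 0.09. The points share their libraries and size factors, and the values are descriptions. Without vehicle replicate 2 the averaged letrozole comparison called 5 sterol genes as fallen and 6 members in all. The share of all genes called in that fit is not given here, so these counts are not read as results about the members.

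Neighbouring pathways were read from lists in the same averaged comparison, in which 3.29% of all genes rose, 3.71% fell and 22.9% passed an unadjusted p under 0.05. Of 8 genes listed for sterol efflux and the liver X receptors (LXR) and their targets, 3 rose. Estimates were above 0 for 8 of 8, with a median log2 difference of 0.60. The list includes the receptor genes Nr1h2 and Nr1h3 themselves. Nr1h2 had widely overlapping ranges, with 1733 to 2335 normalised counts with letrozole, against 1592 to 2512 without. Abca1, which exports cholesterol, had 2492 to 7107 normalised counts in letrozole tumours, against 950 to 3711 in tumours without letrozole (log2 1.00, SE 0.21, adjusted p = 0.0072). Mylip, a ubiquitin ligase for lipoprotein receptors, had 1112 to 1836 with letrozole, against 474 to 1337 without (log2 0.79, SE 0.16, adjusted p = 0.0061). Lpcat3, a phospholipid acyltransferase, had 687 to 1089 with letrozole, against 572 to 732 without (log2 0.42, SE 0.09, adjusted p = 0.0087). For Abca1 and Mylip the highest tumour without letrozole was vehicle replicate 3, which was also the highest in macrophage markers. With the macrophage marker mean as a term, a setting added after seeing the data, the log2 differences of Abca1, Mylip and Lpcat3 were 0.71, 0.62 and 0.41 with adjusted p-values of 0.0689, 0.0576 and 0.0418. With the G2/M marker mean as a term the log2 differences were 0.93, 0.61 and 0.57, with adjusted p-values of 0.178, 0.258 and 0.0236.

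Of 15 genes of fatty acid activation and elongation, 2 rose and none fell. Elovl7, an elongase of long chains, ran from 1470.4 to 2648 normalised counts with letrozole, against 1038 to 1499 without (log2 0.72, SE 0.10, adjusted p = 1.23e-04). Hacd3, a dehydratase of the elongation cycle, had a log2 difference of 0.46 (SE 0.08, adjusted p = 8.52e-04). Of 13 fatty acid oxidation genes, 2 rose, namely Hadha (log2 0.38, adjusted p = 0.0017), a subunit of the trifunctional protein, and Slc25a20 (log2 0.35, adjusted p = 0.0483), the carnitine carrier. Slc25a20 was not called with the adipocyte, fibroblast, macrophage or G2/M mean as a term (adjusted p = 0.0564, 0.116, 0.142 and 0.229). Its log2 estimates in those fits were 0.36, 0.32, 0.36 and 0.42. Hadha was not called with the G2/M mean (log2 0.32, adjusted p = 0.118). Gpam, which starts glycerolipid synthesis, was the 1 of 10 glycerolipid genes called and fell (log2 −0.40, SE 0.09, adjusted p = 0.0105). It was not called with the macrophage mean (log2 −0.33, adjusted p = 0.0863) or the G2/M mean (log2 −0.35, adjusted p = 0.237). Elovl7 and Hacd3 were called with each of the 4 marker means. No gene was called among 10 of the isoprenoid side branches (1 at an unadjusted p under 0.05), 9 of SREBP processing (1) or 12 of sterol uptake, trafficking and storage (5). Medians of these 3 lists were −0.05, 0.02 and 0.27 on the log2 scale.

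Markers of the cell cycle and of cell types were read in the same comparison, where 3.29% of all genes rose, 3.71% fell and 22.9% passed an unadjusted p under 0.05. Of 16 G2/M and mitosis genes, 12 fell, led by Cdc20 (log2 −0.68), and 16 of 16 had estimates below 0, with a median of −0.57. Of 10 macrophage markers, 1 rose (Cd14, log2 0.49) and 7 passed an unadjusted p under 0.05. Estimates were above 0 for 10 of 10, with a median of 0.72. The macrophage marker sums ran from 4339 to 10045 normalised counts in letrozole + anti-PD-1 and 4933 to 10197 in letrozole tumours, against 2115 to 7889 in anti-PD-1 and 1687 to 14322 in vehicle tumours. Fibroblast and basal or myoepithelial markers had 0 of 10 called each by limma (4 each at an unadjusted p under 0.05), with medians of 0.92 and 1.19, and skeletal muscle markers 0 of 9 (4) with a median of 2.10. Of 9 T cell markers 0 were called (1 unadjusted), of 2 measured milk genes 0 (1 unadjusted), of 10 luminal markers 2 rose (Epcam, log2 0.52, and Gata3, log2 0.45), and of 8 oestrogen response genes 3 fell (Pgr, log2 −3.49, Stc2, log2 −2.61, and Nrip1, log2 −0.76). With the G2/M mean as a term in the fit, 4 sterol genes were called, namely Mvd, Lss, Stard4 and Msmo1 (adjusted p = 0.0336), with Fdps and Cyp51 not among them, and 18 of 19 had estimates below 0, with a median of −0.38. With the macrophage, fibroblast or adipocyte mean as a term, 6, 7 and 5 sterol genes were called, 19 of 19 had estimates below 0, and the medians were −0.44, −0.38 and −0.30. Without the 4 libraries that held skeletal muscle genes, all of them from letrozole tumours, Mvd (log2 −0.88, adjusted p = 0.0152) and Lss (log2 −0.82, adjusted p = 0.0093) were the 2 members called, with a sterol median of −0.48. Shares of all genes called or below 0 in these changed fits are not given here. Their counts are therefore not read as results about the members.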

How the data were processed

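RNA of 20 tumours came from Qiagen AllPrep columns, and libraries were made from 1 µg of total RNA with a Swift Rapid kit, per the labels' protocols. STAR 2.7.10a and DESeq2 were used with build GRCm39 (mm39), per the submitters' processing notes. Not given in the sources used here: read counter, strand setting, handling of multiply mapped reads and annotation release. The deposited table holds a normalised signal per transcript, which the authors made from a read count divided by 1 size factor per library: 100% of values were whole multiples of 1 read within 0.001. Of values from 1 to 20 reads, 57.9% to 69.6% per library were even numbers. Recovered reads may therefore not all be independent counts, and the cause was not tested. Of 127442 transcripts, 118871 (93.3%) were named through GENCODE on GRCm38 by transcript identifier, 49 genes sharing a symbol were left out, and 1 transcript was kept per gene. The kept transcript is annotated as retaining an intron for Mvk, Lss and Msmo1 and as a target of nonsense-mediated decay for Mvd, so levels per kilobase of these 4 genes are uncertain. Many transcripts repeat reads of others (18766 hold the values of another transcript).

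The letrozole comparisons were fitted with limma 3.58.1 (trend) in R 4.3.3 on log2(value + 1) for genes with 10 or more in at least 5 columns, with 4 group means, 16 residual degrees of freedom and Benjamini-Hochberg adjustment over 19840 genes. Tests were two-sided with a threshold of 0.05. A fold change is on the log2(value + 1) scale. edgeR 4.0.16 and DESeq2 1.42.0 were run on the recovered reads as alternatives, edgeR calling 1303 genes and DESeq2 1966 in the averaged comparison, against 1389 by limma. The design had assumed normalised values and kept its test. The scripts were tested on simulated data. All 35 members are named. From each other list, the called genes are named, up to 4 in each direction by size, plus markers beside a result. The members and lists were chosen with earlier results of these data known. Same-numbered replicates had deviations with median correlations of −0.04 to 0.10. The 6 pairs of replicate 5 ran from 0.03 to 0.20, and pairs of different numbers from −0.38 to 0.43. The numbers were not used to pair tumours in the main fit, and these correlations cannot exclude a pairing. No batch is named in the labels. Promoters are RefSeq windows on GRCm38.p6; no sequence is shown for Fdps, Scd2 or Stard4.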

Additional observations from a re-analysis of the deposited data

Results flagged for a closer look

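Dixon's test at 5 tumours per group was applied to 140 groups (35 members in 4 groups), of which chance flags about 1 in 20, or 7, and 5 were flagged, each for 1 high tumour. Pmvk, phosphomevalonate kinase, had 875 normalised counts in anti-PD-1 replicate 1, while its 4 companions had 451 to 534. Fdft1 reached 3302 in anti-PD-1 replicate 3, and the 4 remaining tumours of the group had 2109 to 2389. Vehicle replicate 2 was high for Sc5d, at 1961 against 1383 to 1496, and for Stard4, at 1986 against 1066 to 1248. Acly stood at 9346 in letrozole + anti-PD-1 replicate 4, the tumour of that group with the largest adipocyte marker sum, against 6410.4 to 6917.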

How the results depend on the processing

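Among 38 alternative fits of the averaged letrozole comparison, Mvd and Lss were called in 38, Stard4 in 37, Fdps in 36, Cyp51 in 33, Acss2 in 31 and Scd2 in 12, and no member called in the report changed sign. Counts of called members in that comparison (7) were 12 with array weights, 11 with DESeq2, 11 without both vehicle replicate 3 and anti-PD-1 replicate 1, 4 with the G2/M mean as a term and 2 without the 4 skeletal muscle libraries, which were chosen after seeing the data and leave 16 tumours. Leaving out 1 tumour at a time gave 4 to 9, with the lowest count without anti-PD-1 replicate 4. For letrozole against vehicle (0), the counts were 5 with array weights, 4 with DESeq2, 1 with the fibroblast mean, 1 with the G2/M mean, 4 without both libraries and 0 to 2 leaving out 1 tumour. For letrozole + anti-PD-1 against anti-PD-1 (0), they were 2 with DESeq2, 2 with the G2/M mean and 0 to 1 leaving out 1 tumour. For letrozole + anti-PD-1 against vehicle (2), they were 10 with DESeq2, 7 without both libraries, 5 with the fibroblast mean, 4 with array weights, 4 with the G2/M mean, 1 without the skeletal muscle libraries, 0 with the 2 groups alone and 0 to 5 leaving out 1 tumour. The branch difference (−0.47) was −0.24 with medians over members. With the replicate block the averaged comparison called 7 members, 6 of them sterol genes and Scd2 not among them (adjusted p = 0.0737), letrozole + anti-PD-1 against vehicle 2, and each other comparison 0. The causes of these shifts were not tested. Shares of all genes called under each setting are not given here, so a higher or lower count is not read as a result about the members. Counting error matters most for Fads1 and Tm7sf2, the members with the fewest reads.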
